A study of Mus musculus with 6 samples.

Results

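The genes described here are 7 coregulators of nuclear receptors: the coactivators Ncoa1, Ncoa2, Ncoa3, Ncoa6 and Med1, and the corepressors Ncor1 and Nrip1. They were chosen by gene symbol among 53342 genes, each symbol matched 1 gene, and all 7 were among the 24139 genes tested. RNA was sequenced from 3T3L1 cells, a mouse line of fibroblast-like cells that become adipocytes under hormones. Cells of 3 groups with 2 samples each were compared: cells differentiated with LTK-14A, which the labels call an inhibitor of butyrylation, cells differentiated with its solvent DMSO, and untreated cells differentiated with no addition. All 3 groups received insulin at 1 µg/ml, IBMX at 0.5 mM and dexamethasone at 1 µM for 2 days after confluence, followed by insulin alone. The sources used here do not state the dose of LTK-14A, the time of its addition or the day of harvest. The cells are 1 line, and no label states that cultures were separate, so p-values cover just the spread among these samples, which may be technical.

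Nuclear receptors such as PPARγ, the main driver of adipocyte differentiation, switch genes by recruiting coregulators. Bound to an activating ligand, a receptor recruits coactivators through short leucine-rich motifs. The p160 family (Ncoa1, Ncoa2, Ncoa3) brings in the acyltransferases p300 and CBP, Ncoa6 belongs to a complex with histone methyltransferases, and Med1 is the Mediator subunit that contacts receptors. Without such a ligand, many receptors bind NCoR, the product of Ncor1, which carries histone deacetylase HDAC3. Nrip1 encodes RIP140, which binds receptors that hold a ligand and represses their targets, in adipocytes many genes of energy use.

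Values are normalized read counts, back-transformed from the doubly logarithmic values that the authors deposited. Each library held 21550 to 22289 genes above a normalized count of 1. Reads are not known. A stand-in, the summed values divided by the commonest low value, gave 3571915 and 2738469 for LTK-14A, 2854133 and 2807716 for DMSO and 5340799 and 6385419 for untreated cells. Untreated replicate 2 stood apart, since Gm26917 and Gm42418, which hold ribosomal RNA, took 16.4% of its sum, and 8.60% to 10.6% elsewhere. All 10 markers of adipocytes, the labelled cell type, were above 0 in at least 1 library. Their summed level was 3332 and 3864 in LTK-14A cells, against 36297 and 35674 in DMSO cells and 41872 and 34209 in untreated cells.

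Of the 7 coregulators, 2 changed between LTK-14A and DMSO cells and both fell: the corepressor gene Nrip1 and the coactivator gene Ncoa1. None rose. Over all genes tested, 6.58% fell and 3.98% rose, 10.6% in all, at the same threshold, an adjusted p under 0.05 by limma. Thus 1 of 5 coactivators and 1 of 2 corepressors fell. The share called was larger among better expressed genes. In a fit of the 13179 genes with a mean of at least 20, to which all 7 belong, 1894 fell and 1321 rose. The median log2 fold change was 0.00 for the 5 coactivators and -0.05 for all genes. The 2 corepressors had values of opposite sign, -2.05 for Nrip1 and 0.23 for Ncor1, of which the second did not pass. The groups did not overlap for 5 of the 7, where 54.3% of all genes had groups that did not overlap.

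Nrip1 (ENSMUSG00000048490, chromosome 16, 76287400 to 76373827, minus strand, mm10) had normalized counts of 312 and 348 in LTK-14A cells, against 1444 and 1288 in DMSO cells. In untreated cells it had 1296 and 907. Both LTK-14A libraries thus lay far below all 4 others, and the DMSO and untreated libraries overlapped. The mean was 330 ± 25.2 with LTK-14A and 1366 ± 110 with DMSO (SD, n = 2 each), 4.13-fold lower on the log2(value + 1) scale. The log2 fold change was -2.05 (SE 0.18, 95% interval -2.47 to -1.62, adjusted p = 0.000727, limma). Its p stood at rank 189 among 24139. Against untreated cells the log2 fold change was -1.71 (SE 0.18, adjusted p = 0.00128, limma).

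Ncoa1 (ENSMUSG00000020647, chromosome 12, 4247362 to 4477182, minus strand), which encodes the p160 coactivator SRC-1, had 234 and 184 in LTK-14A cells, against 607 and 496 in DMSO cells. Untreated cells had 606 and 453. The LTK-14A libraries again lay below all others, while the DMSO and untreated ranges overlapped. The mean was 209 ± 35.1 with LTK-14A and 552 ± 78.8 with DMSO (SD, n = 2 each), 2.63-fold lower, with a log2 fold change of -1.40 (SE 0.20, 95% interval -1.86 to -0.93, adjusted p = 0.00534, limma). Against untreated cells it was -1.33 (SE 0.20, adjusted p = 0.00555, limma). The call against DMSO was lost without LTK-14A replicate 2 (adjusted p = 0.0645, limma), without DMSO replicate 1 (0.0678) and without the variance trend (0.0608). The call against untreated cells was lost without LTK-14A replicate 2 (adjusted p = 0.0649, limma) and without the trend (0.0600). Of its exons, 68 bases overlap the antisense gene 4921501I09Rik, which had a mean of 0.225.

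In bulk RNA, fewer adipocytes and less RNA per adipocyte cannot be told apart. Beside the falls of Nrip1 and Ncoa1, all 10 adipocyte markers fell, with a median log2 fold change of -4.47, among them Cfd (-8.85), Retn (-5.93), Cidec (-5.64) and Plin1 (-3.49). Of 10 preadipocyte and fibroblast markers, 3 rose (Fn1, Thy1 and Dlk1), 1 fell (Dcn) and 6 did not pass, with a median log2 fold change of 0.09. Dlk1 did not pass against untreated cells (adjusted p = 0.112, limma). The summed level of the 10 was 91834 and 96726 in LTK-14A cells, against 66586 and 72050 in DMSO cells and 70814 and 106746 in untreated cells. Fn1 alone held 33277 and 33981 of the sums in LTK-14A cells, against 11442 and 11306 in DMSO cells and 13157 and 14030 in untreated cells. The part of these shifts in the coregulator values was not tested. Macrophage markers summed to 159 and 150 in LTK-14A cells, against 143 and 156 in DMSO cells and 121 and 155 in untreated cells. Ptprc and the Itgam entry used were listed at 0 in all 6 libraries. Itgam had 2 entries, and the other was not part of the sum. Of the 5 macrophage markers tested, Cd68 rose and Lyz2 fell with LTK-14A. Endothelial markers summed to 4.89 and 9.15 in LTK-14A cells, against 20.2 and 6.70 in DMSO cells and 11.2 and 6.68 in untreated cells, with Emcn listed at 0 throughout. Against DMSO, 0 of 3 tested passed by limma, Pecam1 (adjusted p = 0.103) and Tek (0.438) included, with 1 at an unadjusted p under 0.05. Pecam1 passed against DMSO without the variance trend (adjusted p = 0.0240, limma) and with a pseudocount of 0.1 (0.0393). Against untreated cells Pecam1 fell (adjusted p = 0.0241, limma), listed at 0 in both LTK-14A libraries, against 2.15 and 2.20 in DMSO cells and 5.22 and 4.46 in untreated cells. Also against untreated cells, 10 of 10 adipocyte markers fell, 2 preadipocyte and fibroblast markers rose and 1 fell, and 1 macrophage marker rose and 1 fell.

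**Figure D1:**
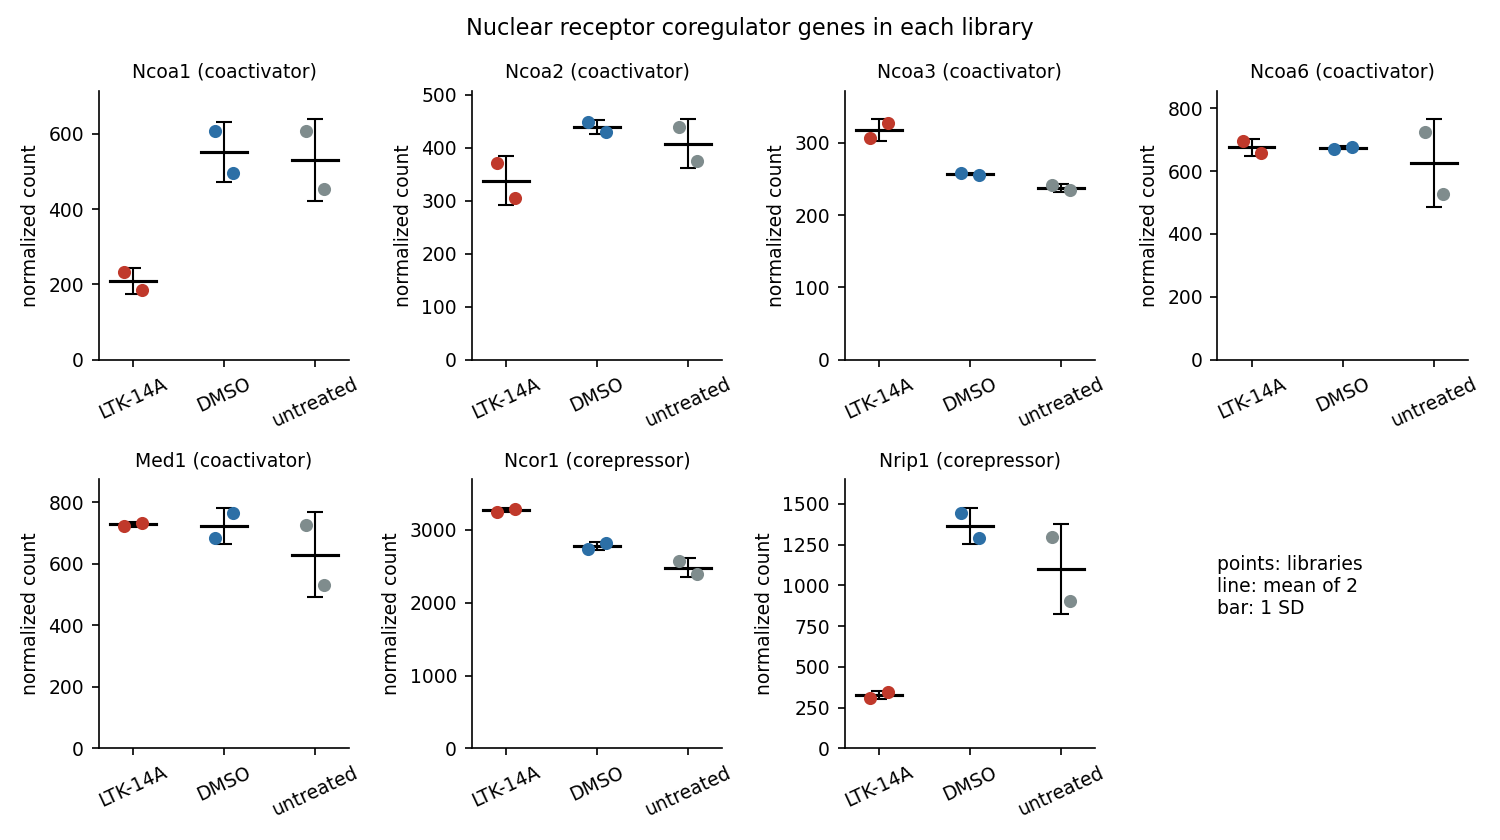
Normalized counts (vertical axis, linear from 0) of the 7 coregulator genes in each library, by group; points are libraries, lines the mean of 2 and bars 1 SD. Nrip1 and Ncoa1 are lower in both LTK-14A libraries (312 and 348, and 234 and 184) than in any other, while Ncoa6 and Med1 overlap between LTK-14A and DMSO libraries.

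The sequences upstream of these 2 genes are shown because theirs were the falls that passed. Each run gives the 250 bases before the RefSeq start of the gene (GRCm38.p6, minus strand, 5′ to 3′), with the GC box GGGCGG and its reverse complement, the nuclear receptor half-site AGGTCA and the CCAAT box in capitals where present on either strand. Ncoa1 lies at chr12:4477183-4477432 and Nrip1 at chr16:76373828-76374077.
Ncoa1: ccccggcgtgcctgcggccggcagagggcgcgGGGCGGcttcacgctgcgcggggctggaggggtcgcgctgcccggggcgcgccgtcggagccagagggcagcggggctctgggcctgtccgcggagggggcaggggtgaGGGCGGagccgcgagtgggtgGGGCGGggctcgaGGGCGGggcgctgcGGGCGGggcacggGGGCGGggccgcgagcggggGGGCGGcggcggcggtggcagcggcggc
Nrip1: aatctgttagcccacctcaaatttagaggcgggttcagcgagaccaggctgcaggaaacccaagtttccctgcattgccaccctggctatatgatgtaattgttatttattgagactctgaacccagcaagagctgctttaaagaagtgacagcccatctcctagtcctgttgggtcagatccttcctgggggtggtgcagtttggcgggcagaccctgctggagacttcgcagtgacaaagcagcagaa
The Ncoa1 window held 85.6% G and C and 7 copies of the GC box, a motif found in 32.7% of the 32851 windows of this length. The Nrip1 window held 51.2% G and C, near the median of 52.4%, and no GC box, though a second RefSeq window of Nrip1, at chr16:76373050-76373299, held 73.6% and 2 copies that overlap. No Ncoa1 or Nrip1 window held AGGTCA (14.0% of all windows), CCAAT (33.8%), the E-box CACGTG (6.02%) or the C/EBP motif TTGCNNAA (9.56%). The promoter table had 5 of the 7 genes, without Ncoa2 and Ncoa3. These matches describe letters in a window and not binding.

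Neither of the other p160 genes passed. Ncoa2 (SRC-2, ENSMUSG00000005886, chromosome 1, 13139105 to 13374083) had 371 and 306 in LTK-14A cells, against 450 and 431 in DMSO cells and 440 and 375 in untreated cells. Its log2 fold change against DMSO was -0.38 (SE 0.15, 95% interval -0.74 to -0.03), which did not pass after adjustment (adjusted p = 0.156, limma), and against untreated cells it was -0.27 (adjusted p = 0.293). Ncoa3 (SRC-3, ENSMUSG00000027678, chromosome 2, 165992636 to 166073242) was higher in both LTK-14A libraries than in all others, at 306 and 328, against 258 and 255 with DMSO and 242 and 234 without addition. That difference did not pass either, at log2 fold changes of 0.30 against DMSO (SE 0.13, 95% interval 0.00 to 0.61, adjusted p = 0.191, limma) and 0.41 against untreated cells (SE 0.13, adjusted p = 0.082). Of its exons, 154 bases (1.95%) overlap exons of Sulf2 on the opposite strand. Whether counting used strand is unknown, so reads there may come from either gene.

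The shares of the p160 family were set side by side. Counts were divided by the length of all annotated exons of each gene, since levels of different genes compare only per length. Ncoa1 made up 30.4% and 26% of the summed p160 level per kb in LTK-14A cells, against 53.6% and 49.1% in DMSO cells and 54.6% and 49.6% in untreated cells. Ncoa3 made up 43.2% and 50.3% in LTK-14A cells, against 24.7% and 27.5% in DMSO cells and 23.6% and 27.8% in untreated cells. Ncoa2 made up 26.4% and 23.7% with LTK-14A, against 21.7% and 23.4% with DMSO and 21.8% and 22.5% without addition. By these lengths, Ncoa3 was the largest p160 part with LTK-14A and Ncoa1 in the other groups. The annotated exons span 8576 bases for Ncoa1, 15642 for Ncoa2 and 7895 for Ncoa3, and no other length was tried. Undivided, Ncoa2 had 371 and 306 in LTK-14A cells and Ncoa3 306 and 328, so the place of Ncoa2 depends on its length. Ncoa1 stood at 0.703 and 0.518 times the level of Ncoa3 per kb in LTK-14A cells, against 2.17 and 1.79 times in DMSO cells and 2.31 and 1.78 times in untreated cells. The summed p160 level was 89.8 and 82.6 normalized counts per kb in LTK-14A cells, against 132 and 118 in DMSO cells and 129 and 106 in untreated cells. Of the summed level of Ncor1 and Nrip1 per kb, Nrip1 made up 9.70% and 10.6% with LTK-14A, against 37.1% and 33.8% with DMSO and 36.03% and 29.8% without addition. The shares describe these libraries, and no test was made on them.

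**Figure D2:**
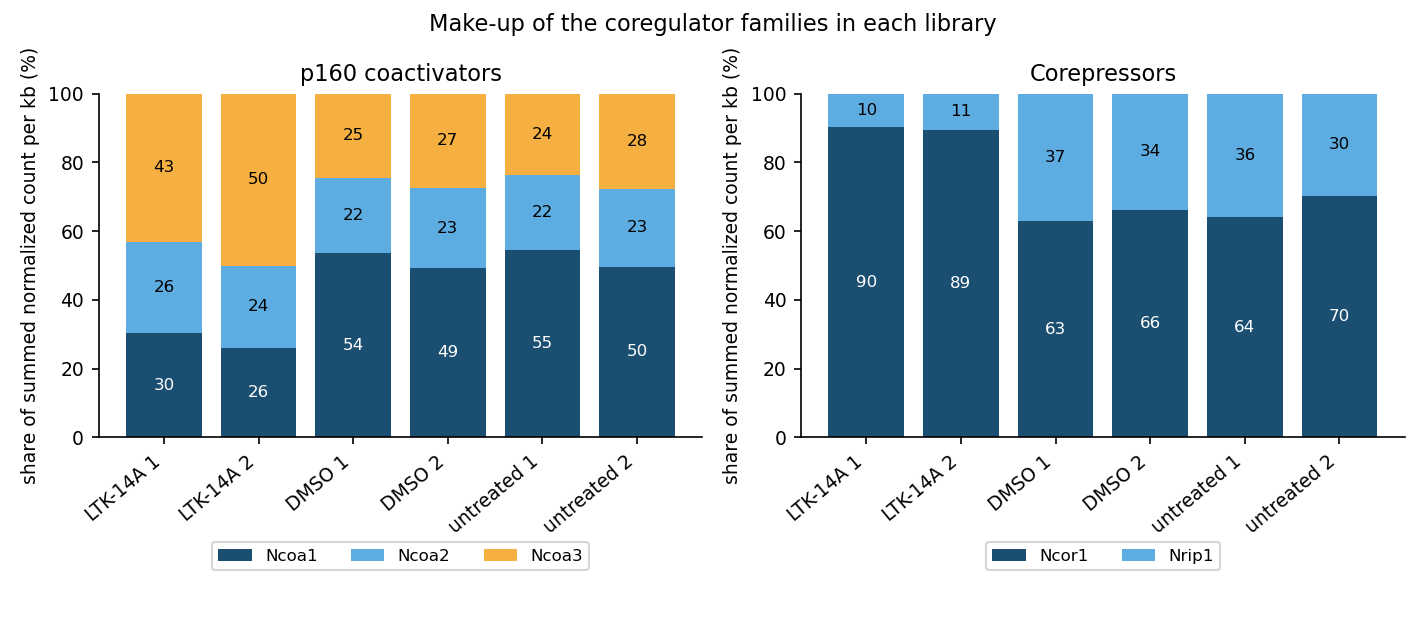
Share of each gene in the summed normalized count per kb of exon (vertical axis, %) in each library, for the p160 coactivators (left) and for the corepressors Ncor1 and Nrip1 (right). By annotated exon length, Ncoa3 is the largest p160 part in both LTK-14A libraries, and Nrip1 makes up 9.70% and 10.6% of the sum with Ncor1.

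Ncoa6 and Med1 did not pass against either control. Ncoa6 (ENSMUSG00000038369, chromosome 2, 155390656 to 155473894) had 695 and 656 in LTK-14A cells, against 671 and 678 in DMSO cells and 723 and 526 in untreated cells. Med1 (ENSMUSG00000018160, chromosome 11, 98152154 to 98193293) had 722 and 734 in LTK-14A cells, against 683 and 765 in DMSO cells and 728 and 532 in untreated cells. For both, the LTK-14A and DMSO ranges overlapped, and untreated replicate 2 was the lowest library. The log2 fold changes against DMSO were 0.00 for Ncoa6 (SE 0.16, 95% interval -0.38 to 0.38) and 0.01 for Med1 (SE 0.16, 95% interval -0.37 to 0.40), and these intervals hold changes of that size in either direction. Against untreated cells they were 0.13 and 0.23 and did not pass (adjusted p = 0.652 and 0.429, limma). Without untreated replicate 1, Med1 passed against untreated cells (log2 fold change 0.45, adjusted p = 0.0415, limma).

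The corepressor gene Ncor1 (ENSMUSG00000018501, chromosome 11, 62316426 to 62458541) did not pass. It had 3251 and 3294 in LTK-14A cells, against 2741 and 2824 in DMSO cells and 2572 and 2394 in untreated cells, so both LTK-14A libraries lay above all others. The mean was 3273 ± 31.0 with LTK-14A and 2782 ± 58.7 with DMSO (SD, n = 2 each). The log2 fold change of 0.23 against DMSO (SE 0.11, 95% interval -0.01 to 0.48) did not pass (adjusted p = 0.217, limma). Against untreated cells it was 0.40 (SE 0.11), just short of the threshold (adjusted p = 0.05004, limma). That p fell under 0.05 without untreated replicate 1 (adjusted p = 0.0121, limma), without untreated replicate 2 (0.0389), with a minimum mean of 20 (0.0279) and with a scaling without the ribosomal RNA loci (0.0403). Of its exons, 82 bases overlap Pigl on the opposite strand.

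Per kb, Ncor1 had the highest level of the 7 genes in every group, at 255 ± 2.42 in LTK-14A cells, 217 ± 4.58 in DMSO cells and 194 ± 9.84 in untreated cells (mean ± SD, n = 2 each). Nrip1 came second in DMSO and untreated cells, at 119 ± 9.59 and 96.1 ± 24.0. In LTK-14A cells it stood at 28.8 ± 2.20, below Med1 (83.2 ± 0.947), Ncoa6 (69.3 ± 2.79) and Ncoa3 (40.2 ± 1.90). There Nrip1 was followed by Ncoa1 (24.4 ± 4.10) and Ncoa2 (21.6 ± 2.92), and the libraries of Nrip1 and Ncoa1 and those of Ncoa1 and Ncoa2 overlapped. In DMSO cells the order after Nrip1 was Med1, Ncoa6, Ncoa1, Ncoa3 and Ncoa2, in which Ncoa6 and Ncoa1 overlapped. Untreated cells had the same order, in which Nrip1 overlapped Med1, and Med1, Ncoa6 and Ncoa1 overlapped one another. These orders rest on the annotated exon lengths, and no other length was tried.

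The coactivators were set against the corepressors within each library. The mean log2(value + 1) of the 5 coactivators minus that of the 2 corepressors was -1.25 and -1.46 in LTK-14A cells, against -1.98 and -1.96 in DMSO cells and -1.84 and -1.85 in untreated cells. The difference was 0.61 for LTK-14A minus DMSO and 0.49 for LTK-14A minus untreated cells. Both group means were lower with LTK-14A. For the coactivators the differences were -0.29 against DMSO and -0.17 against untreated cells, and for the corepressors -0.91 and -0.66. Against DMSO, Ncoa1 stood at -1.40, Ncoa2 at -0.38, Ncoa6 at 0.00, Med1 at 0.01 and Ncoa3 at 0.30. Against untreated cells, Ncoa1 and Ncoa2 stood at -1.33 and -0.27, and Ncoa6, Med1 and Ncoa3 at 0.13, 0.23 and 0.41. The coactivator mean of LTK-14A replicate 1 (8.72) lay above that of untreated replicate 2 (8.67). Of the corepressors, Nrip1 fell (-2.05 and -1.71) and Ncor1 did not (0.23 and 0.40). The means are not per length, so only their differences between libraries can be read. The 5 differences over Nrip1 share its fall of -2.05, so their common sign is no separate result. They ran from 0.65 for Ncoa1 to 2.35 for Ncoa3 in LTK-14A minus DMSO cells, although no coactivator passed as higher. The log2 fold change of Ncoa3 itself was 0.30 and did not pass. The differences over Ncor1 were -1.63 for Ncoa1, -0.62 for Ncoa2, -0.23 for Ncoa6 and -0.22 for Med1, and 0.07 for Ncoa3. For LTK-14A minus untreated cells, the differences ran from 0.39 to 2.13 over Nrip1 and from -1.73 to 0.01 over Ncor1. Per kb, Med1 was 3.03 and 2.76 times Nrip1 in LTK-14A cells, against 0.619 and 0.777 times in DMSO cells and 0.735 and 0.767 times in untreated cells.

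**Figure D3:**
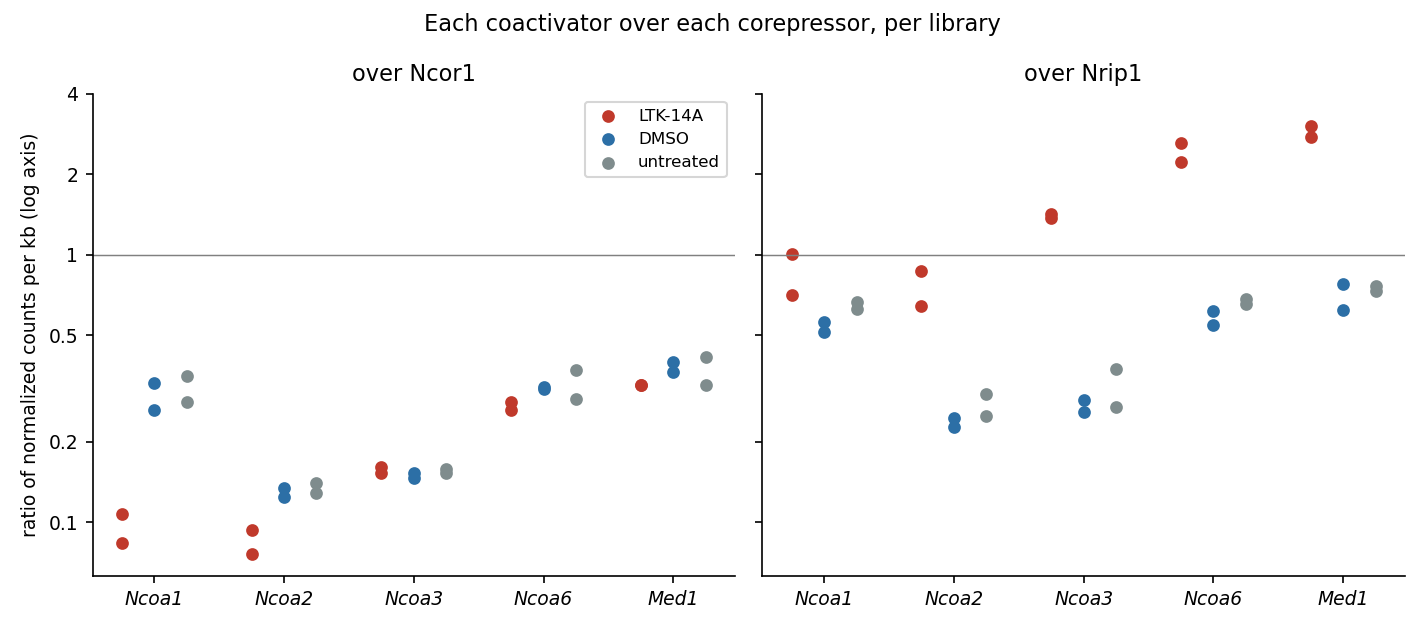
Ratio of each coactivator to Ncor1 (left) and to Nrip1 (right) in normalized counts per kb (vertical log axis), with 1 point per library and groups by colour. The ratios over Nrip1 are all higher in the LTK-14A libraries than in the DMSO libraries, since they share Nrip1 (log2 fold change -2.05) below the line, and over Ncor1 Ncoa1 stands at 0.108 and 0.0836, against 0.331 and 0.262 with DMSO.

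LTK-14A cells were also compared with untreated cells, and the comparison shares its LTK-14A samples with the one above. Again 2 of the 7 genes changed and both were lower in LTK-14A cells, the same Nrip1 and Ncoa1, where 12.9% of all genes tested changed, with 8.17% lower and 4.68% higher. In the fit of the 13179 genes with a mean of at least 20, 2374 were lower and 1594 higher. The groups did not overlap for 5 of the 7 and for 53.6% of all genes. Without untreated replicate 1, the untreated group was replicate 2 alone, the library that stood apart in ribosomal RNA. Ncor1 and Med1 then each had a log2 fold change of 0.45. DMSO itself changed none of the 7 genes against untreated cells, where 0.0249% of all genes changed and 1408 had an unadjusted p under 0.05. The groups did not overlap for 2 of the 7, Ncoa3 and Ncor1, and for 33.1% of all genes. Their log2 fold changes were all above 0, between 0.07 for Ncoa1 and 0.33 for Nrip1 (SE 0.18, adjusted p = 0.804, limma), and none of the 7 had an unadjusted p under 0.05. The lowest such p was 0.107, that of Nrip1. The 95% interval of Nrip1 ran from -0.09 to 0.75.

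**Figure D4:**
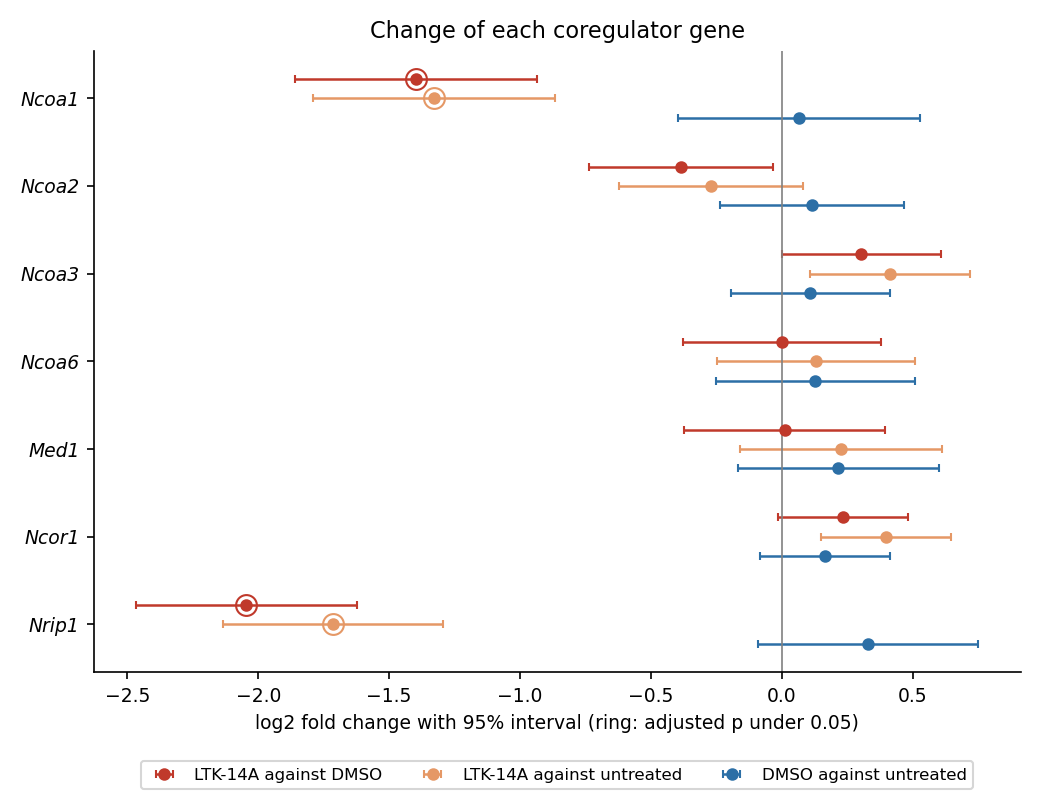
Log2 fold changes of the 7 genes (horizontal axis) with 95% intervals from limma in the 3 comparisons; rings mark an adjusted p under 0.05. Rings stand at Nrip1 (-2.05 and -1.71) and Ncoa1 (-1.40 and -1.33) in the comparisons with LTK-14A and nowhere for DMSO against untreated cells.

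Partners of the corepressors did not pass in LTK-14A against DMSO. Of 6 partner genes of NCoR, 0 passed by limma, with a median log2 fold change of 0.13. Hdac3, the deacetylase gene, had 267 and 335 in LTK-14A cells, against 299 and 328 in DMSO cells and 326 and 400.4 in untreated cells, so its groups overlapped (log2 fold change -0.07, SE 0.17, 95% interval -0.46 to 0.33). The log2 fold changes were 0.15 for Tbl1x and 0.18 for Tbl1xr1, which encode scaffold subunits, and -0.18 for Gps2. That of Cops2, which encodes a receptor-binding corepressor of the signalosome, was 0.50 (SE 0.22, adjusted p = 0.206, limma). Cops2 passed without untreated replicate 1 (adjusted p = 0.0346, limma), without untreated replicate 2 (0.0334) and with the 2 groups alone (0.0349). Of 12 other corepressor genes tested, 0 passed as well, with -0.50 for Ncoa5 (adjusted p = 0.0941, limma) and -0.998 for Hr (adjusted p = 0.125), whose product binds thyroid hormone and vitamin D receptors. In the 2 lists, 0 and 4 genes had an unadjusted p under 0.05, beside 6345 of all genes. Against untreated cells Hr fell (log2 fold change -1.50, adjusted p = 0.0334, limma), and no other gene of the 2 lists passed.

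Among 21 other coactivators and related factors tested, 5 fell and 1 rose against DMSO, where 6.58% of all genes tested fell and 3.98% rose. Ppargc1b, which encodes PGC-1β, a coactivator of mitochondrial genes, had 70.04 and 94.0 in LTK-14A cells, against 307 and 365 in DMSO cells and 435 and 449 in untreated cells (log2 fold change against DMSO -2.03, SE 0.18, adjusted p = 0.000785, limma). Both LTK-14A libraries lay below all others. Ebf2, a transcription factor of brown adipocytes that the list also held, fell by 2.14 on the log2 scale, and Kat2b, the acyltransferase PCAF, had a log2 fold change of -0.91. Hmga1, a chromatin architectural protein, rose by 0.67. Tgs1 and Helz2, which encode receptor coactivator partners, had log2 fold changes of -0.93 and -1.07 and passed too. Against untreated cells, 5 of the list fell (Ppargc1b, Ebf2, Helz2, Kat2b and Ncoa4) and 2 rose (Hmga1 and Ncoa7). Of all genes tested, 8.17% fell and 4.68% rose in that comparison. The p160 partners Ep300 and Crebbp lay at log2 fold changes of -0.03 and -0.15 and did not pass (adjusted p = 0.925 and 0.434, limma).

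The partners of Ncoa6 and Med1 mostly did not pass. Of 9 partners of Ncoa6 in the MLL3 and MLL4 methyltransferase complexes, 0 passed by limma, with a median of -0.13, and the smallest adjusted p were those of Kmt2c, the MLL3 gene (log2 fold change -0.42, SE 0.14, adjusted p = 0.101), and Paxip1 (-0.22, adjusted p = 0.403). Kmt2c passed without untreated replicate 1 (adjusted p = 0.0150, limma), without untreated replicate 2 (0.0149), with the 2 groups alone (0.0156) and with a minimum mean of 20 (0.04999). Of 32 other Mediator genes, 1 rose and 0 fell, with a median of -0.12, where 3.98% of all genes tested rose and 6.58% fell. The gene that rose was Med13l of the Mediator kinase module, which had 2126 and 2140 in LTK-14A cells, against 1299 and 1431 in DMSO cells and 1392 and 1487 in untreated cells (log2 fold change 0.65, SE 0.11, adjusted p = 0.0118, limma). Its call was lost in 5 of 14 alternative settings. Against untreated cells, 2 Mediator genes rose (Med13l and Med14) and 2 fell (Med16 and Med24), and 0 of the Ncoa6 partners passed. In LTK-14A against DMSO, 1 Ncoa6 partner and 7 Mediator genes had an unadjusted p under 0.05.

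The receptors that these coregulators serve were mixed. Of 25 nuclear receptor genes tested, 5 fell and 2 rose against DMSO, where 6.58% of all genes tested fell and 3.98% rose. Against untreated cells, 6 fell and 2 rose, where 8.17% of all genes tested fell and 4.68% rose. Nr1h3, the liver X receptor alpha, had 17.2 and 25.1 in LTK-14A cells, against 189 and 172 in DMSO cells and 197 and 225 in untreated cells. Its log2 fold change against DMSO was -3.05, that of Pparg was -1.65 and that of Esrra, the estrogen-related receptor alpha, was -1.18, and all 3 fell by limma. Vdr, the vitamin D receptor, rose by 1.55 on the log2 scale, at 438 and 323 with LTK-14A, against 147 and 110 with DMSO and 108 and 127 without addition. Rxra, the partner of PPARγ on DNA, had 1412 and 1567 with LTK-14A, against 1298 and 1381 with DMSO and 1414 and 1690 without addition, and did not pass (log2 fold change 0.15, adjusted p = 0.533, limma). The low gene Rxrg stood at 0 in each LTK-14A library, against 10.9 and 13.5 with DMSO and 10.96 and 13.9 without addition, and it fell, as did Nr4a1, while Nr1d2 rose.

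**Figure D5:**
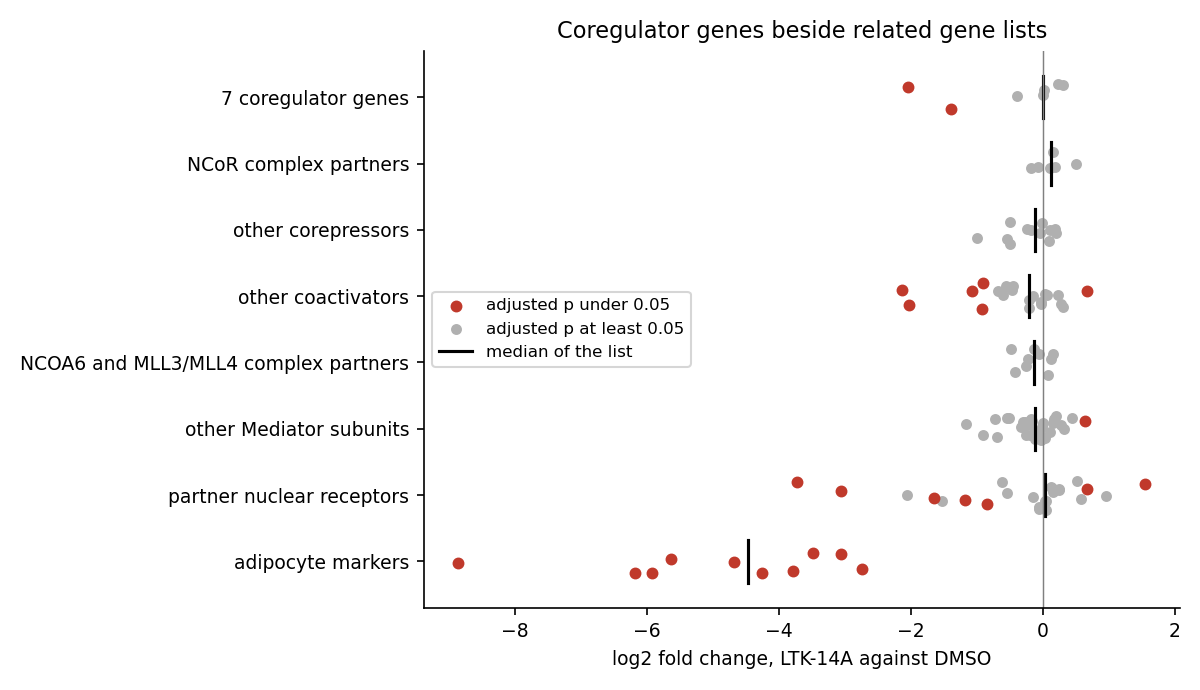
Log2 fold change of LTK-14A against DMSO (horizontal axis) for the 7 genes and for 7 related lists, with 1 point per gene tested, coloured by adjusted p, and a bar at each list's median. Points past the threshold sit at Nrip1 and Ncoa1 in the top row, while the adipocyte markers, with a median of -4.47, all lie on the left.

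The genes whose pattern was most like that of each fallen coregulator were sought over all 6 libraries, among 7520 other genes whose mean reached 100. The measure was the Euclidean distance between centred log2(value + 1) values. Closest to Nrip1 were Klf10, a transcription factor gene induced by TGF-beta (distance 0.292), Hibch, an enzyme gene of valine breakdown (0.321), and Sod2, the mitochondrial superoxide dismutase gene (0.325). Sod2 had 643 and 708 in LTK-14A cells, against 2422 and 2101 in DMSO cells and 2251 and 1746 in untreated cells. Closest to Ncoa1 were Hsdl2, a hydroxysteroid dehydrogenase-like gene (0.226), Fam49b (0.257) and the nuclear pore gene Ndc1 (0.282). Hsdl2 had 157 and 142 in LTK-14A cells, against 455 and 406 in DMSO cells and 474 and 361 in untreated cells.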

How the data were processed

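Total RNA was sequenced with a stranded kit that depletes ribosomal RNA, per the labels' protocols. The authors deposited 1 table of 53342 genes of log10 values, taken from the values themselves (no header states it) as the log10 of a normalized count's log2. Per the submitters' processing notes the genome build was mm10. The sources used here name no aligner, counter, strand setting or scaling. Values were back-transformed by raising 10 and then 2 to them, and a listed 0 was kept as 0. Of low values, 22.8% to 27.1% lay within 0.01 of a whole step, so no count test was used.

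Tested were the 24139 genes that reached 1 in 2 or more samples. log2(value + 1) was fitted in limma 3.58.1 (R 4.3.3) with 3 group means over 6 samples, a trend of variance on mean, without a block for replicate number. P-values were two-sided and Benjamini-Hochberg adjusted over all genes tested, at 0.05. Exon lengths came from GENCODE vM21, in which 53237 of the identifiers were found, and upstream sequences from RefSeq (GRCm38.p6). Python 3.11.15 was used for the rest. The fit was tested on simulated data.

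The 7 genes, the lists and the tests were chosen with earlier results of these data known. Named beside the 7 genes were the 4 genes of each list with the smallest adjusted p among those that passed, or 2 where none passed, 4 partners of NCoR in any case, and the 3 genes most like each fallen gene. Crebbp, Ep300, Helz2, Med14, Med16, Med24, Ncoa4, Ncoa7, Nr1d2, Nr4a1, Rxra, Rxrg and Tgs1 were named after their values were seen. One gene of the NCoR list is not reported here. Alternatives were quantile normalization, no trend, no filter, a minimum mean of 20, the replicate number as a block, 0.1 as pseudocount, a fit of only the 2 compared groups and leaving out each library; a scaling without ribosomal RNA loci was added after seeing the data.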

Additional observations from a re-analysis of the deposited data

How the results depend on the processing

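Nrip1 kept its fall and its call under all 14 alternatives in both comparisons with LTK-14A. Ncoa1 kept its fall under all 14, at log2 fold changes of -1.57 to -1.23 against DMSO, and its call under 11 of them against DMSO and 12 against untreated cells. The cause of the losses was not tested, except that leaving out a library leaves fewer samples and a group with 1, which is assumed to vary like the others. Without the variance trend, 1 of the 7 genes changed in each comparison with LTK-14A, and 1205 and 1387 of all genes changed against DMSO and against untreated cells. Leaving out 1 library gave 1 to 2 of the 7 genes against DMSO (591 to 3629 of all genes, and 591 to 829 without any 1 of the LTK-14A or DMSO libraries) and 1 to 4 against untreated cells (867 to 4016, with 867 and 1037 without LTK-14A replicate 1 or 2, and 2036 and 2048 without DMSO replicate 1 or 2). With the 2 compared groups alone, 2044 genes changed for LTK-14A against untreated cells and 0 for DMSO against untreated cells (1182 at an unadjusted p under 0.05). A pseudocount of 0.1 gave 3 for DMSO against untreated cells, and leaving out a library gave 0 to 109, with 109 without untreated replicate 1.

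Values near 0 changed sign without passing. In LTK-14A against DMSO, Ncoa6 was at -0.00139 after quantile normalization and at -0.00881 with the added scaling, and between -0.0389 and 0.0430 with a library left out. Med1 lay between -0.0710 and 0.0931, Hdac3 between -0.228 and 0.0975, and Gps2 between -0.577 and 0.219. Against untreated cells, Ncoa6 lay between -0.0986 and 0.360. In DMSO against untreated cells, Ncoa1 lay between -0.143 and 0.276, Ncoa2 between -0.000680 and 0.230, Ncoa6 between -0.101 and 0.358, and Med1 between -0.00976 and 0.442. The coactivator minus corepressor difference of DMSO against untreated cells was -0.121 and moved to -0.142 after quantile normalization. Of 19 other named genes that changed, 8 kept their call in every setting and 11 lost it in some. Dlk1 lost its call in 6 settings, and Thy1, Dcn, Kat2b, Hmga1 and Med13l in 5 each. The call of Cd68 was lost in 4, those of Ebf2, Vdr and Esrra in 3 each and that of Lyz2 in 2.

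The correlations of same-numbered deviations, across genes, were 0.0518 for LTK-14A with DMSO, -0.0180 for LTK-14A with untreated cells and 0.167 for DMSO with untreated cells. These values cannot tell whether same-numbered samples were handled together. With the replicate number as a block, 2 of the 7 genes again changed in each comparison with LTK-14A, and 2635, 3269 and 5 of all genes changed. Each group had 2 samples and read depth is not known, which limits the precision of small differences such as those of Ncor1 and Ncoa3. The calls that Cops2, Kmt2c, Pecam1, Ncor1 and Med1 gained under some alternatives are given with these genes.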
